A study of Mus musculus with 12 samples.

Results

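The polysomal pool of METTL7A1 cells was compared with the sub-polysomal pool of the same cells in 6 of the 12 libraries of an RNA-Seq of pooled sucrose gradient fractions. The 6 libraries are those whose labels give the genotype Mettl7a1 and either fractions 8 to 11 (polysomal, replicates D, E and F) or fractions 3 to 7 (sub-polysomal, replicates D, E and F). The cells were 4T1, a cancer line from the mouse mammary gland, in stable transfectants of FLAG-tagged METTL7A1, a putative methyltransferase, and the other 6 libraries were the same pools of mock cells (replicates A, B and C), which carried the empty vector. All cells received cycloheximide, which stalls ribosomes on their mRNA, at 0.1 mg/ml for 5 min before lysis. Per the labels, free 40S and 60S subunits and 80S monosomes made up the sub-polysomal pool, while light and heavy polysomes made up the other. The transfected protein was expressed from a vector in stable transfectants, and whether these were clones is not given in the sources used here. The labels do not tie the 3 replicates to separate cultures, so the p-values measure the spread between these libraries, which may be technical.

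In a gradient, an mRNA that carries several ribosomes sediments with the polysomes, whereas an mRNA with none or a single ribosome, or an RNA that is not translated, stays in lighter fractions. A short reading frame has room for few ribosomes. Some mRNAs carry elements that hold back initiation, such as the iron-responsive element of ferritin mRNAs, the pyrimidine-rich start (TOP) of ribosomal protein mRNAs, and the upstream reading frames of mRNAs of the integrated stress response.

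Total counts lay between 3670942 and 5171156 in the sub-polysomal and between 5358491 and 6890725 in the polysomal libraries. Levels are given in CPM, counts scaled to the TMM-adjusted library size, and 3 counts equalled between 0.385 and 0.995 CPM in these libraries. Mettl7a1 (chromosome 15, 100304140 to 100328662 in GENCODE vM21 of GRCm38) had 989 to 2436 counts in the 6 METTL7A1 libraries and 4 to 24 in the 6 mock libraries. Of the 7 epithelial markers, 7 were above the filter, while 1 of 6 lymphoid and myeloid, 0 of 4 endothelial and 1 of 5 fibroblast markers were. The polysomal library of replicate F stood apart in Gm42418, a gene that overlaps rRNA sequence, which took 2.92% of its counts. The share was 0.301% and 0.140% in the polysomal libraries of D and E and 0.207% to 0.382% in the sub-polysomal libraries. Between the pools the share had p = 0.8 (two-sided exact permutation test, n = 3 and 3), which does not test a single library. The log2 change of Gm42418 was 1.48 (SE 0.67, adjusted p = 0.0647, edgeR) and -0.89 without that library, so counts that this library moved by over 1.5 times are also given without it. Transcripts of the mitochondrial genome took 4.37% to 7.67% of the counts in sub-polysomal and 1.04% to 1.46% in polysomal libraries (p = 0.1 in the same exact test, the smallest p that 3 against 3 allows).

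RNA differed widely between the pools. The test was edgeR's quasi-likelihood test on 12224 genes, and a gene passed at a Benjamini-Hochberg adjusted p below 0.01 and was called when its log2 change also lay beyond 1.5. In polysomal RNA 2807 genes (23.0% of those tested) passed as higher and 2899 (23.7%) as lower, while 215 (1.76%) were called higher and 1265 (10.3%) lower. The counts of members of each list below stand against these shares. In 4220 genes (34.5%) the 3 polysomal libraries all lay above the 3 sub-polysomal libraries, and in 3943 (32.3%) they all lay below. The median log2 change was 0.058 with an SD over genes of 1.15. CPM values and log2 changes are relative to the TMM-adjusted library size. The TMM factors were 0.81 to 0.82 in sub-polysomal and 1.11 to 1.14 in polysomal libraries. The values are thus not plain shares of a pool's counts, amounts per cell are not measured and the calls are relative to the scaling. Scaling to library totals alone moved the median to 0.53 and gave 1130 genes higher and 738 lower, and scaling to Actb moved it to -0.18 and gave 81 higher and 1656 lower, and list medians shifted with them. Without the polysomal library of replicate F, 234 genes were called higher and 1273 lower.

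**Figure D1:**
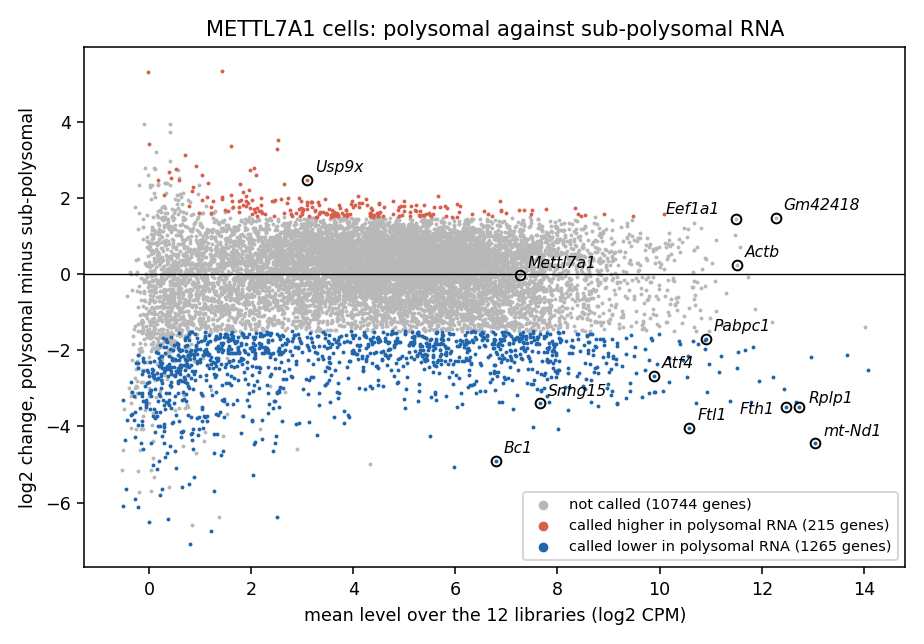
Log2 change from sub-polysomal to polysomal RNA in METTL7A1 cells (vertical axis) against the mean log2 CPM over the 12 libraries (horizontal axis), 1 point per gene, for 12224 genes. The 1265 genes called lower reach further from 0 than the 215 called higher, and the labelled Ftl1, Fth1, Rplp1 and mt-Nd1 are abundant transcripts with changes below -3.

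The 10 largest rises among protein-coding genes with a mean of at least 5 CPM included those of Usp9x, Dstyk, Zfp871, Itga6, Nrp1, Dnajc13, Ice1, Otud4 and Zfp146, with log2 changes from 1.93 to 2.47. Usp9x, a deubiquitinase with a coding sequence of 7665 nucleotides, measured 1.33, 2.48 and 2.15 CPM in the sub-polysomal libraries D, E and F and 12.3, 11.0 and 10.9 CPM in the polysomal libraries (log2 change 2.47, SE 0.36, adjusted p = 1.18e-05, edgeR). Itga6, a laminin-binding integrin subunit, measured 22.5, 12.9 and 16.0 CPM in sub-polysomal and 79.7, 73.8 and 57.1 CPM in polysomal RNA, a log2 change of 2.05 (SE 0.24, adjusted p = 1.13e-06, edgeR). Otud4, another deubiquitinase, was the most abundant of the 10, at 42.8, 46.6 and 56.9 CPM in sub-polysomal and 188, 183 and 188 CPM in polysomal RNA, a log2 change of 1.93 (SE 0.20, adjusted p = 3.77e-07, edgeR). The pools did not overlap in these genes, as the choice required. Their coding sequences ran from 879 nucleotides in Zfp146, a zinc finger gene, to 7665 in Usp9x.

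The largest falls were those of mt-Nd1, Smim27, Ftl1, Selenow, Gm10073, Cops9, Ndufc1, Irf7, Rplp1 and Fth1, with log2 changes from -4.45 to -3.48. Of these 10, Irf7, an interferon-response transcription factor, had the longest coding sequence, at 1374 nucleotides. The others had 150 (Smim27) to 957 (mt-Nd1). Gm10073 and Rplp1 had the same coding length (345 nucleotides) and a like GC content (57.5% and 57.3%). Whether they share reads was not tested. Cops9, a small subunit of the COP9 signalosome, measured 523, 614 and 781 CPM in sub-polysomal and 48.4, 58.4 and 56.1 CPM in polysomal RNA (log2 change -3.56, SE 0.32, adjusted p = 7.75e-08, edgeR). Irf7 measured 60.7, 67.2 and 90.1 CPM and 6.58, 6.16 and 6.23 CPM, a log2 change of -3.52 (SE 0.26, adjusted p = 2.50e-08, edgeR). Every polysomal library lay below every sub-polysomal library in these genes, as the choice required.

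The change followed coding length. Among the 10820 protein-coding genes with a coding length, the median log2 change was -2.01 below 300 nucleotides (215 genes), -0.97 from 300 to below 600 (1193 genes) and -0.10 from 600 to below 1200 (3121 genes). It was 0.29 from 1200 to below 2400 nucleotides (4013 genes), 0.63 from 2400 to below 4800 (1793 genes) and 0.84 from 4800 to below 9600 (434 genes), and it was 0.52 in the 51 genes of 9600 or more. Of the genes below 300 nucleotides, 197 passed as lower (91.6%) and 2 as higher, and 152 (70.7%) were called lower. Of those from 4800 to below 9600 nucleotides, 7 passed as lower (1.61%) and 224 as higher (51.6%). Across these genes the log2 change had a Spearman correlation of 0.54 with coding length in METTL7A1 cells and 0.55 in mock cells, as a description over genes that share libraries. Medians within single replicates kept the order of the bins up to 4800 nucleotides in D, E and F. Such medians set each polysomal library against the sub-polysomal library of the same letter, though the letters were not taken as pairs in the test. The 3′ UTR length had a weaker correlation of 0.25, and the 5′ UTR length one of 0.12.

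**Figure D2:**
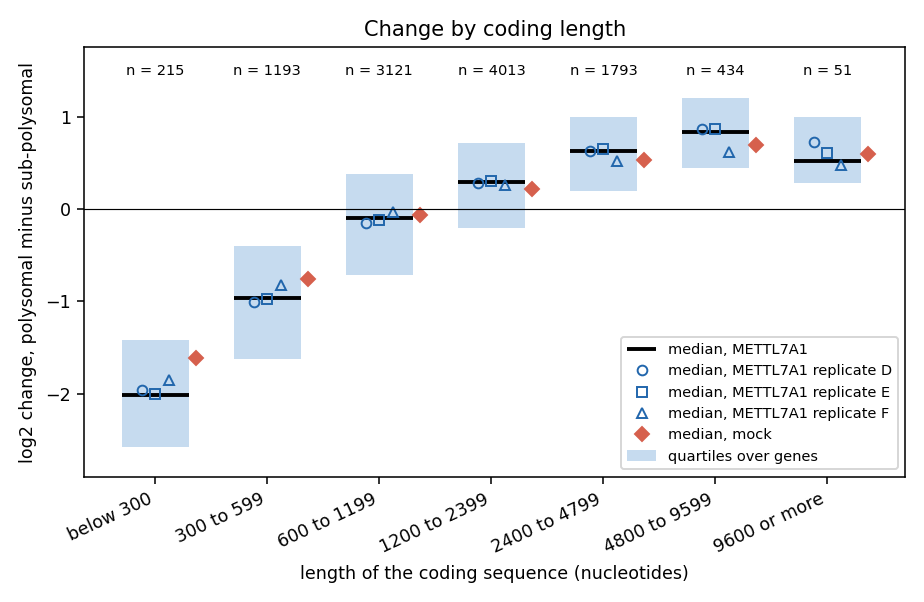
Log2 change from sub-polysomal to polysomal RNA (vertical axis) in bins of coding length in nucleotides (horizontal axis), with the quartiles over genes as bars, the median as a line, the medians of replicates D, E and F as open symbols and the mock median as a diamond. The median climbs from -2.01 below 300 nucleotides to 0.84 at 4800 to below 9600, and the mock medians run from -1.62 to 0.69 over the same bins.

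The trend had exceptions, named here after their values were seen. Map3k10, a kinase of the JNK pathway with 2823 coding nucleotides, measured 50.1, 48.6 and 49.7 CPM in sub-polysomal and 5.62, 5.65 and 7.58 CPM in polysomal RNA, a log2 change of -2.99 (SE 0.25, adjusted p = 5.13e-08, edgeR). Zdhhc1, a palmitoyltransferase gene of 1455 coding nucleotides, had a log2 change of -3.02 (SE 0.23, adjusted p = 3.20e-08, edgeR). In the other direction Anp32e, a histone chaperone of 783 coding nucleotides, measured 47.4, 49.4 and 50.5 CPM and 155, 155 and 143 CPM, a log2 change of 1.62 (SE 0.20, adjusted p = 2.32e-06, edgeR). Plec, which encodes the cytoskeletal linker plectin and belonged to a list of 27 mRNAs with long reading frames, had a log2 change of -1.46 (SE 0.21, adjusted p = 9.51e-06, edgeR) against a list median of 0.49. Of that list 11 passed as higher and 1 as lower.

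Most mRNAs of cytosolic ribosomal proteins fell. Of 80 listed genes 78 were tested, 61 passed as lower and 2 as higher (all genes: 23.7% and 23.0%), and the median log2 change was -1.31, against 0.058 over all genes and -0.94 in mock cells. The counts that passed were also 61 and 2 without the polysomal library of replicate F. Rplp1, an acidic protein of the ribosomal stalk, measured 14106, 15781 and 15547 CPM in sub-polysomal and 1064, 1408 and 1583 CPM in polysomal RNA (log2 change -3.49, SE 0.28, adjusted p = 4.20e-08, edgeR). Rpl39, which has 156 coding nucleotides, went from 3431, 3641 and 3888 CPM to 302, 343 and 400.0 CPM, a log2 change of -3.39 (SE 0.33, adjusted p = 1.79e-07, edgeR). Together the list's members had 178550 to 202711 CPM in the sub-polysomal and 62295 to 67487 CPM in the polysomal libraries. These sums are TMM-scaled levels, not shares of the counts.

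Within this list the log2 change had a Spearman correlation of 0.65 with coding length, and members of like length could lie far apart. Rps2, Rplp0 and Rpsa, with 882, 954 and 888 coding nucleotides, had log2 changes of -3.32, -3.34 and -3.02 (SE 0.26, 0.29 and 0.25). Rpl5, which carries the 5S rRNA, has 894 coding nucleotides and rose, from 492, 483 and 481 CPM to 967, 935 and 914 CPM, a log2 change of 0.95 (SE 0.15, adjusted p = 2.76e-05, edgeR). Rpl4, with 1260 coding nucleotides, went from 1136, 1201 and 1166 CPM to 1907, 1897 and 1678 CPM, a log2 change of 0.65 (SE 0.16, adjusted p = 0.00228, edgeR), which did not pass without replicate D, E or F (0.59, 0.64, 0.70) nor when scaled to Actb (0.40). Rack1, a scaffold protein of the small subunit with 954 coding nucleotides, had -0.079 (SE 0.19, adjusted p = 0.737, edgeR), and 0.39 when scaled to library totals. Ribosomal protein genes have processed pseudogenes of near-identical sequence, so their counts may have lost or gained reads.

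**Figure D3:**
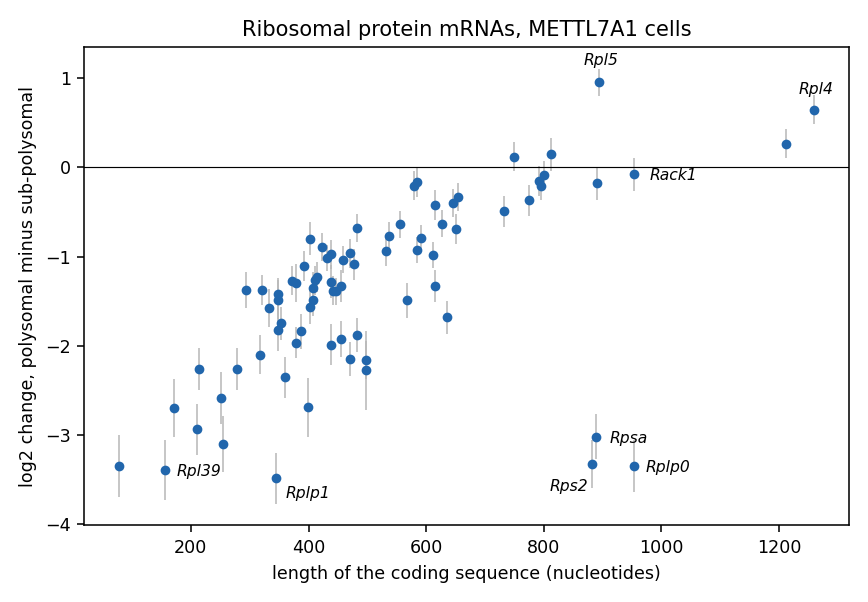
Log2 change from sub-polysomal to polysomal RNA with its SE (vertical axis) of the tested cytosolic ribosomal protein mRNAs against the length of their coding sequence in nucleotides (horizontal axis). Most points climb with length, from Rpl39 at -3.39 to Rpl4 at 0.65 and Rpl5 at 0.95, while Rps2, Rplp0 and Rpsa lie near -3.

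The first bases of ribosomal protein mRNAs are shown because the TOP start is the element they are known for. A search of the sense strand of 10453 annotated 5′ UTRs of at least 20 bases for a C at the first base followed by at least 4 bases that are C or T found 237 (2.27%), and 10 of the 77 ribosomal protein mRNAs with such a UTR (13.0%). The annotated start need not be the start used in these cells. The first 20 bases of 4 of them, on GRCm38 in GENCODE vM21 transcripts, are given with the pyrimidine run in capitals, for Rps2 (chr17:24720110-24720129, plus strand), Rpl32 (chr6:115808728-115808747, minus strand), Rack1 (chr11:48800360-48800379, plus strand) and Rpl4 (chr9:64173375-64173394, plus strand).
Rps2: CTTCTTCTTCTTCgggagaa
Rpl32: CTTCCTTCTTCCTCggcgct
Rack1: CTTTTTCTCCacagggtcgt
Rpl4: CTTTTCCTgtgggagcagcc
Their log2 changes ran from -3.32 in Rps2 through -1.48 in Rpl32 (SE 0.19) and -0.079 in Rack1 to 0.65 in Rpl4. Of the 10 ribosomal protein mRNAs with such a start 8 passed as lower, 1 (Rpl4) as higher and 1 (Rack1) did not pass. Over all 237 genes with such a start the median log2 change was -0.00053, and 0.15 over the other genes with a UTR.

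Other mRNAs known for a TOP start, which encode elongation and initiation factors and RNA-binding proteins, are listed apart. Of 16 tested, 9 passed as higher and 3 as lower, beside 23.0% and 23.7% of all genes (7 and 1 without the polysomal library of replicate F), with a median of 0.50 (0.23 in mock cells). Eef1a1, which brings aminoacyl-tRNA to the ribosome, measured 1170.2, 1317 and 1246 CPM in sub-polysomal and 3382, 3694 and 3027 CPM in polysomal RNA (log2 change 1.44, SE 0.18, adjusted p = 2.16e-06, edgeR). Hnrnpa1, a splicing factor, had a log2 change of 1.55 (SE 0.16, adjusted p = 3.14e-07, edgeR). Pabpc1, the cytoplasmic poly(A)-binding protein, went the other way, from 2212, 2149 and 2824 CPM to 768, 736 and 702 CPM, a log2 change of -1.70 (SE 0.20, adjusted p = 1.25e-06, edgeR), and -2.07 in mock cells.

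Among 54 tested genes of the initiation factor list 19 passed as higher and 12 as lower, beside 23.0% and 23.7% of all genes (16 and 9 without the polysomal library of replicate F), and the median was 0.20 (-0.034 when scaled to Actb). The list and its counts also hold pseudogenes such as Eif1-ps1, kinases such as Eif2ak3 and the inhibitors Eif4ebp1 and Eif4ebp2, which are not initiation factors. The scaffold proteins of the cap-binding complex were among the rises. Eif4g1 measured 165, 139 and 142 CPM in sub-polysomal and 366, 391 and 313 CPM in polysomal RNA, a log2 change of 1.27 (SE 0.15, adjusted p = 1.38e-06, edgeR). Eif4g3 had 1.83 (SE 0.21, adjusted p = 8.89e-07, edgeR) and Eif5b, which joins the ribosomal subunits, 1.38 (SE 0.16, adjusted p = 1.05e-06, edgeR). Eif4ebp1, an inhibitor of the cap-binding protein with 354 coding nucleotides, fell from 349.8, 383 and 419.9 CPM to 69.3, 84.4 and 82.0 CPM, a log2 change of -2.29 (SE 0.19, adjusted p = 5.13e-08, edgeR).

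Of the mRNAs for which the study lists qRT-PCR primers 9 were taken as a list here, of which Eif4g1 and Pabpc1 are given above. Ddx5, an RNA helicase, measured 141, 156 and 163 CPM in sub-polysomal and 407, 430.2 and 403 CPM in polysomal RNA, a log2 change of 1.43 (SE 0.17, adjusted p = 1.06e-06, edgeR). Itgb2, an integrin subunit, had 1.26 (SE 0.16, adjusted p = 3.22e-06, edgeR), and Yap1, the transcriptional effector of the Hippo pathway, 1.20 (SE 0.14, adjusted p = 8.26e-07, edgeR). Eif4a2, a helicase of initiation, had -0.52 (SE 0.14, adjusted p = 0.00403, edgeR), which did not pass without replicate D, E or F (-0.52, -0.54, -0.51), without the polysomal library of F (-0.54), with no filter beyond 1 count (-0.50) or when scaled to library totals (-0.053). Cldn3 (-0.41, SE 0.22), Khsrp (0.06, SE 0.14) and Pawr (0.20, SE 0.14) did not pass, with adjusted p = 0.114, 0.734 and 0.208 (edgeR). These calls rest on the scaling. Under library totals Cldn3 had 0.055, while Khsrp (0.53, adjusted p = 0.00395, edgeR) and Pawr (0.67, adjusted p = 5.97e-04, edgeR) passed as higher, and scaled to Actb Khsrp had -0.19 and Pawr -0.041. The median of the 9 was 0.20 (-0.041 scaled to Actb). The study chose these mRNAs with results of these samples at hand, so the list is not independent evidence. Of the study's controls, Actb had a log2 change of 0.24 (SE 0.16, adjusted p = 0.205, edgeR). Under library totals Actb passed as higher (0.71, adjusted p = 4.85e-04, edgeR). Mmp14, a membrane protease, had 1.29 (SE 0.21, adjusted p = 3.46e-05, edgeR). The study's qRT-PCR set METTL7A1 against mock cells, normalized to total RNA. The change between pools within METTL7A1 cells is another measure. In mock cells it was 1.20 for Mmp14, 0.080 for Actb, 0.70 for Ddx5, 0.58 for Itgb2 and 1.05 for Yap1. It was -0.96 for Eif4a2, -0.39 for Cldn3, 0.023 for Khsrp and -0.074 for Pawr.

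The transfected Mettl7a1 mRNA itself measured 395, 284 and 236 CPM in sub-polysomal and 309, 313 and 273 CPM in polysomal RNA, and the pools overlapped (log2 change -0.032, SE 0.17, adjusted p = 0.884, edgeR). Its sign was not settled and changed to 0.44 under library totals, with upper-quartile factors (0.036), without replicate D (0.17) and without the polysomal library of F (0.027). Its paralogue Mettl7b, whose coding sequence is equally long at 735 nucleotides, fell from 169.8, 175 and 178 CPM to 55.6, 63.4 and 66.9 CPM, a log2 change of -1.49 (SE 0.18, adjusted p = 1.20e-06, edgeR).

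**Figure D4:**
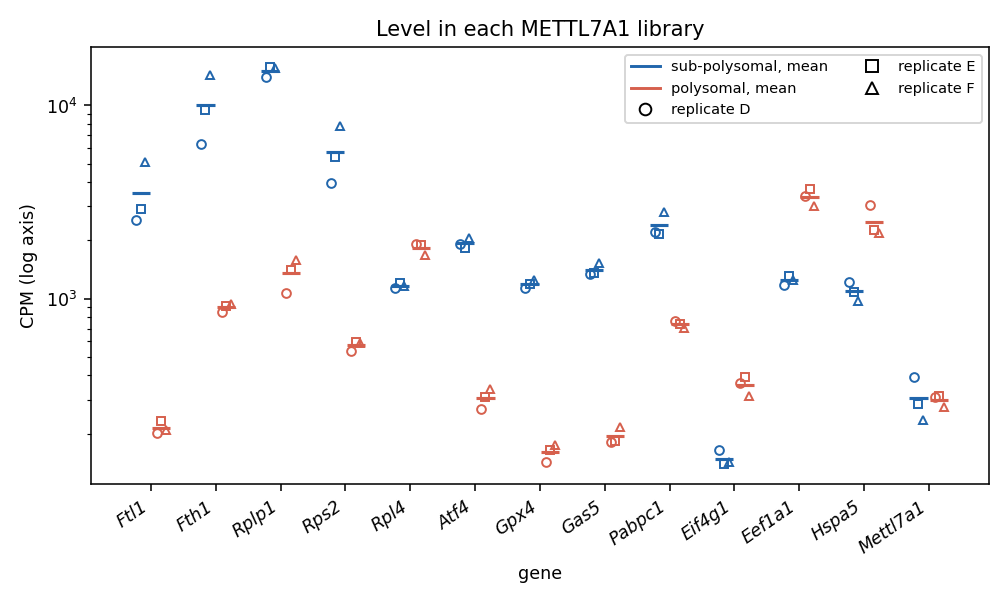
CPM on a log axis (vertical) of named genes (horizontal) in each METTL7A1 library, with sub-polysomal libraries in blue, polysomal libraries in red, a symbol per replicate and a line at the mean of 3. The pools lie apart in each gene drawn except Mettl7a1, where they overlap.

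Ferritin mRNAs were among the largest falls. Ftl1, the light chain, measured 2557, 2899 and 5114 CPM in sub-polysomal and 201, 231 and 209 CPM in polysomal RNA (log2 change -4.04, SE 0.29, adjusted p = 2.50e-08, edgeR). Fth1, the heavy chain, measured 6305, 9436 and 14411 CPM and 847, 916 and 937 CPM, a log2 change of -3.48 (SE 0.30, adjusted p = 6.91e-08, edgeR). In both genes the sub-polysomal level was highest in F and lowest in D, and the polysomal libraries lay close together. Of the 6 tested mRNAs known for an iron-responsive element, 2 passed as lower and 0 as higher, and the median was -0.69, but 0.022 over those with at least 10 counts in each METTL7A1 library. Slc40a1, the iron exporter ferroportin, had -1.44 at under 3 CPM in every library (SE 0.52, adjusted p = 0.0241, edgeR), which passed without the polysomal library of F (-1.96, adjusted p = 0.00951). Tfrc, the transferrin receptor, whose elements lie in the 3′ UTR, had a log2 change of 0.42 (SE 0.25, adjusted p = 0.153, edgeR), and passed as higher under library totals (0.89, adjusted p = 0.00394, edgeR).

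The elements of 3 mRNAs with one in the 5′ UTR are shown because those of the ferritins share a stem. The search was for a C, any 5 bases, CAGTGN and then 5 bases that can pair with the 5 before the loop (G-T pairs allowed), on the sense strand of annotated 5′ UTRs of tested genes, and found 16 of 10453 (0.153%). The sequences are from GENCODE vM21 transcripts on GRCm38, with the 6 bases of the loop in capitals and 5 flanking bases on either side. They lie in the 5′ UTRs of Ftl1 (chr7:45459780-45459806, minus strand), Fth1 (chr19:9982733-9982759, plus strand) and Slc40a1 (chr1:45925466-45925492, minus strand).
Ftl1: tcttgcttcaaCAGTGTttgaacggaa
Fth1: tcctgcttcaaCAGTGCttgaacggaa
Slc40a1: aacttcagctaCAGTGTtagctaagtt
The stems of Ftl1 and Fth1 hold the same bases, and their log2 changes were -4.04 and -3.48, with 552 and 549 coding nucleotides. Coding genes from 300 to below 600 nucleotides had a median of -0.97. Ftl1 shares its element with the pseudogene Ftl1-ps1, so reads of these 2 may not be told apart.

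Transcripts of mitochondrial energy metabolism were low in polysomal RNA, both those of the mitochondrial genome, which mitochondrial ribosomes translate, and those of the nucleus. Of the 13 mitochondrially encoded mRNAs 7 were tested and 7 passed as lower, with a median of -2.51 (-2.75 in mock cells). The others did not reach the filter, so the list covers only part of these mRNAs. Their near absence from the counts also bears on the mitochondrial share of counts given above, and its cause was not tested. The mRNA of complex I subunit 1, mt-Nd1, measured 12120.1, 18113 and 26429 CPM in sub-polysomal and 728, 836 and 1033 CPM in polysomal RNA (log2 change -4.45, SE 0.39, adjusted p = 7.41e-08, edgeR). Of 76 nuclear genes of oxidative phosphorylation 59 passed as lower and 5 as higher, with a median of -1.36 (-1.03 in mock cells) and a median coding length of 414 nucleotides. Ndufc1, a complex I subunit of 231 coding nucleotides, measured 209, 239.7 and 279.8 CPM and 15.3, 28.0 and 19.0 CPM, a log2 change of -3.54 (SE 0.31, adjusted p = 6.14e-08, edgeR). The 5 rises were of subunits with 1362 coding nucleotides or more, among them Uqcrc2, a core protein of complex III, at 1.16 (SE 0.15, adjusted p = 3.47e-06, edgeR). Of 79 mitochondrial ribosomal protein genes 53 passed as lower and 4 as higher, with a median of -1.02. Mrps24 had -2.58 (SE 0.21, adjusted p = 4.50e-08, edgeR) and Mrps31 1.12 (SE 0.17, adjusted p = 1.92e-05, edgeR).

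Of 9 tested mRNAs of the integrated stress response 5 passed as lower and 3 as higher, beside 23.7% and 23.0% of all genes. Atf4, the transcription factor at the head of the response, measured 1929, 1824 and 2069 CPM in sub-polysomal and 269, 309 and 339 CPM in polysomal RNA (log2 change -2.67, SE 0.24, adjusted p = 8.36e-08, edgeR), and its log2 change was -1.92 (SE 0.23) in mock cells. Its relative Atf5 had -2.82 (SE 0.23, adjusted p = 5.13e-08, edgeR) and Ddit3, a later factor of the response, -1.93 (SE 0.26, adjusted p = 4.39e-06, edgeR). Eprs, a tRNA synthetase, rose, with a log2 change of 1.13 (SE 0.18, adjusted p = 3.22e-05, edgeR).

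Selenoprotein mRNAs, in which a stop codon is read as selenocysteine, passed as lower in 9 and higher in 3 of 17 tested, with a median of -0.94 (-0.47 in mock cells). Their median coding length was 594 nucleotides, and the change had a Spearman correlation of 0.61 with coding length within the list. Coding genes from 300 to below 600 nucleotides had a median of -0.97. Selenow, a short redox protein, measured 296, 354 and 369 CPM and 17.5, 24.0 and 21.1 CPM (log2 change -4.02, SE 0.32, adjusted p = 4.16e-08, edgeR). Gpx4, which reduces lipid peroxides, measured 1136, 1184 and 1243 CPM and 143, 165 and 174 CPM, a log2 change of -2.89 (SE 0.21, adjusted p = 2.50e-08, edgeR). Selenoi, an enzyme of phospholipid synthesis with 1197 coding nucleotides, rose, with a log2 change of 1.11 (SE 0.16, adjusted p = 1.16e-05, edgeR).

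In the polyamine pathway 5 of 10 passed as lower and 1 as higher, beside 23.7% and 23.0% of all genes. Oaz1, the antizyme that is made by a polyamine-dependent frameshift, measured 770.0, 868 and 859.6 CPM and 143, 210.3 and 199 CPM, a log2 change of -2.18 (SE 0.25, adjusted p = 8.26e-07, edgeR). Its target Odc1, the first enzyme of the pathway, had -0.24 (SE 0.15, adjusted p = 0.168, edgeR; 0.23 under library totals).

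Non-coding RNAs were few above the filter, and some reached it only through the sub-polysomal libraries, where they were higher, so their counts are a description of the genes kept. Of 184 tested lincRNA genes 78 were called lower (42.4%) and 0 higher, and of 37 snoRNA genes 28 (75.7%) and 0, while 776 of 10837 protein-coding genes were called lower (7.16%). Among 16 host genes of small nucleolar RNAs, whose spliced RNAs carry no long reading frame, 15 passed as lower and 0 as higher, with a median of -2.93 (-2.99 in mock cells). Gas5 measured 1345, 1362 and 1529 CPM in sub-polysomal and 182, 182 and 217 CPM in polysomal RNA (log2 change -2.86, SE 0.26, adjusted p = 9.55e-08, edgeR), and Snhg15 had -3.39 (SE 0.26, adjusted p = 3.37e-08, edgeR). Of 147 snoRNAs and scaRNAs 23 were above the filter and 19 passed as lower, 16 without the polysomal library of replicate F. Their median was -2.95, and -1.97 with no filter beyond 1 count.

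The largest falls of other gene types were those of Gm10827, D730044K07Rik, Bc1, Rpph1, mt-Tp, Gm10180, Rplp0-ps1, Tmem134, Gm26917 and Snora57. Bc1, a small cytoplasmic RNA known from neurons, measured 248, 131 and 169.5 CPM in sub-polysomal and 8.90, 6.68 and 2.19 CPM in polysomal RNA, a log2 change of -4.90 (SE 0.46, adjusted p = 1.31e-07, edgeR). Rpph1, the RNA of RNase P, ranged widely, at 33.5, 21.6 and 3.11 CPM and 0.137, 0 and 2.36 CPM, a log2 change of -4.65 (SE 0.85, adjusted p = 1.79e-04, edgeR). Without replicate D it was -3.51 (adjusted p = 0.0100, edgeR) and did not pass. Tmem134, a processed transcript in the annotation, measured 477, 584 and 711 CPM and 28.8, 36.3 and 40.8 CPM, a log2 change of -4.07 (SE 0.29, adjusted p = 2.50e-08, edgeR). Of the 9 tested nuclear and structural RNAs 5 passed as lower, with a median of -0.96 (-1.64 with limma-voom), and 7 passed with a median of -1.69 without the polysomal library of replicate F. Of 7 tested replication-dependent histone genes, of 70 in the file, 5 passed as lower, with a median of -2.02, but -0.21 with no filter beyond 1 count, so the value rests on the genes the filter kept. These mRNAs end in a stem-loop in place of a poly(A) tail.

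In 5 lists of enzymes and complexes most members that passed were higher in polysomal RNA. Of 20 aminoacyl-tRNA synthetases, which charge tRNAs with amino acids, 16 passed as higher and 0 as lower, with a median of 1.09 (0.69 in mock cells), and Hars, the histidine enzyme, measured 59.4, 52.9 and 56.0 CPM in sub-polysomal and 174, 170.4 and 139 CPM in polysomal RNA (log2 change 1.53, SE 0.15, adjusted p = 1.74e-07, edgeR). Of 18 glycolysis enzymes 13 passed as higher and 0 as lower, with a median of 0.69, led by Hk2, the hexokinase of tumour cells, at 1.56 (SE 0.21, adjusted p = 4.57e-06, edgeR). Proteasome subunits passed as higher in 18 and lower in 1 of 37, with Psmd1, a scaffold subunit of the regulatory particle, at 1.80 (SE 0.16, adjusted p = 7.11e-08, edgeR) and Psmb10, a subunit of the immunoproteasome, at -1.52 (SE 0.18, adjusted p = 1.09e-06, edgeR). Cell cycle and mitosis genes passed as higher in 19 and lower in 1 of 32, with Pcna, the sliding clamp of replication, at 1.25 (SE 0.18, adjusted p = 8.26e-06, edgeR). Of 17 writers, readers and erasers of m6A, a base modification of mRNA, 8 passed as higher and 0 as lower, with the eraser Fto at 1.46 (SE 0.19, adjusted p = 4.75e-06, edgeR) and Mettl14, a core subunit of the writer, at 1.04 (SE 0.17, adjusted p = 4.95e-05, edgeR). The median coding lengths of these 5 lists ran from 834 nucleotides (proteasome) to 2183 (cell cycle).

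**Figure D5:**
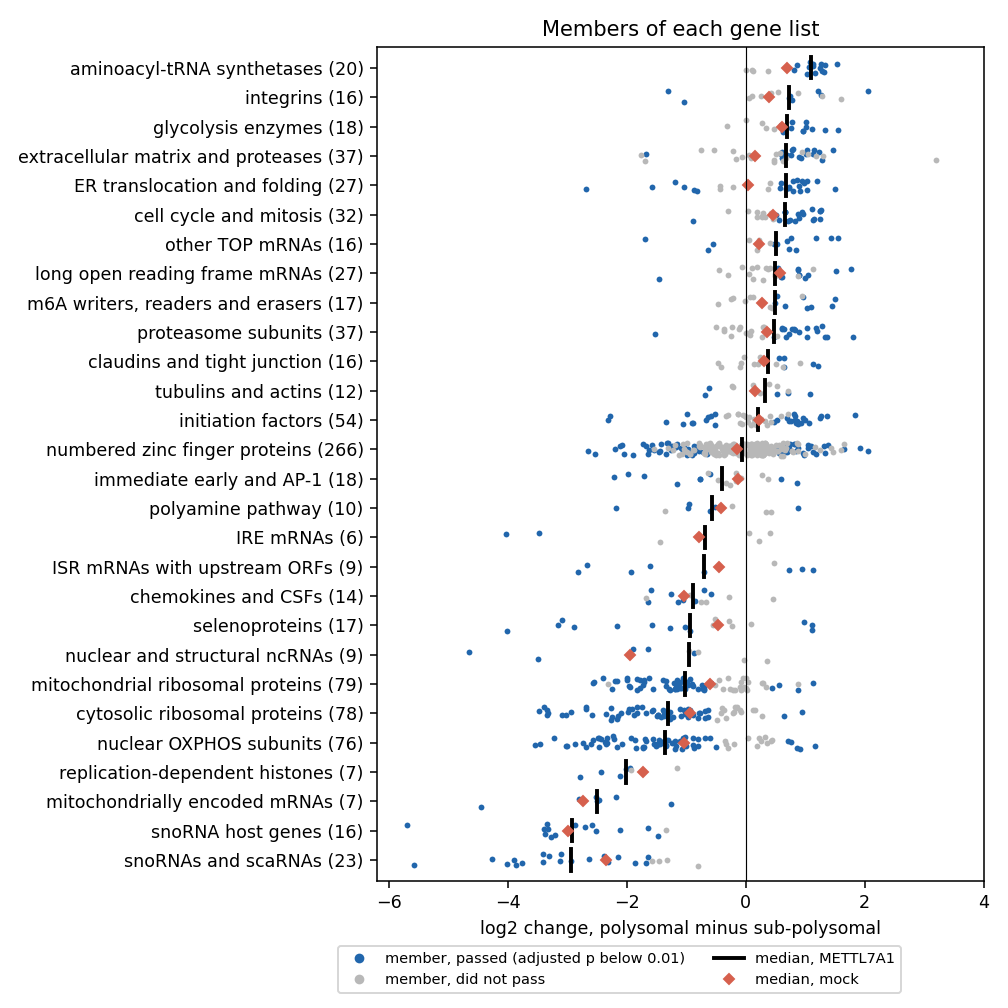
Log2 change from sub-polysomal to polysomal RNA (horizontal axis) of each tested member of the gene lists (vertical axis, number tested in brackets), with members that passed in blue, others in grey, the METTL7A1 median as a line and the mock median as a diamond. The lists are ordered by their METTL7A1 median, from small nucleolar RNAs at -2.95 to aminoacyl-tRNA synthetases at 1.09.

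Of 27 genes of translocation into the endoplasmic reticulum and folding there, 16 passed as higher and 6 as lower, and the change had a Spearman correlation of 0.82 with coding length over these genes. Hspa5, the chaperone BiP, measured 1212, 1079 and 977 CPM and 3044, 2256 and 2188 CPM (log2 change 1.20, SE 0.18, adjusted p = 2.33e-05, edgeR), while Sec61b, a small subunit of the translocon with 291 coding nucleotides, fell from 425, 462 and 445 CPM to 58.9, 73.7 and 73.1 CPM, a log2 change of -2.70 (SE 0.25, adjusted p = 1.20e-07, edgeR). Of 37 extracellular matrix and protease genes 16 passed as higher and 1 as lower (Mmp24, -1.68), with a median of 0.69 (0.16 in mock cells). The integrin list passed as higher in 6 and lower in 2 of 16, beside 23.0% and 23.7% of all genes. The 2 that passed as lower, Itgb3bp and Itgb1bp1, encode proteins that bind integrins. Claudins and other tight junction genes passed as higher in 5 and lower in 0 of 16, beside 23.0% and 23.7% of all genes, with Ocln, the junctional membrane protein occludin, at 1.14 (SE 0.15, adjusted p = 5.43e-06, edgeR). Chemokines and colony-stimulating factors, which are short secreted proteins, passed as lower in 8 and higher in 0 of 14, with Ccl5 at 76.6, 77.2 and 78.4 CPM and 23.3, 21.6 and 29.6 CPM, a log2 change of -1.65 (SE 0.26, adjusted p = 2.66e-05, edgeR). The epithelial markers passed as higher in 6 of 7, with Cdh1, the epithelial cadherin, at 1.32 (SE 0.16, adjusted p = 1.20e-06, edgeR).

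Numbered zinc finger genes passed as higher in 31 and lower in 41 of 266, beside 23.0% and 23.7% of all genes. Without the polysomal library of replicate F 22 passed as higher and 42 as lower. Of the 266, 3 were called higher and 13 lower, beside 1.76% and 10.3% of all genes. The median was -0.056, which turned to 0.41 under library totals and 0.0087 with upper-quartile factors. Tubulin and actin genes passed as higher in 3 and lower in 2 of 12, beside 23.0% and 23.7% of all genes, and in 3 and 0 without the polysomal library of replicate F. Immediate early and AP-1 genes passed as lower in 7 and higher in 2 of 18 (7 and 1 without the polysomal library of replicate F), with a median of -0.40 (0.071 under library totals). Among these, Jund fell from 262, 331 and 255 CPM to 42.7, 65.2 and 75.6 CPM, a log2 change of -2.21 (SE 0.21, adjusted p = 1.29e-07, edgeR), and Fosl2 rose, with a log2 change of 0.86 (SE 0.14, adjusted p = 2.91e-05, edgeR).

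The pattern in METTL7A1 cells was compared with that in mock cells. Across the 12224 genes the log2 changes had a Pearson correlation of 0.86 and a Spearman correlation of 0.84, as a description over genes, and the SD over genes was 1.15 in METTL7A1 and 0.98 in mock cells. The test of the difference called 0 of the 12224 genes (0%), with 0 at an adjusted p below 0.05 and 1911 at an unadjusted p below 0.05 in edgeR's quasi-likelihood test. DESeq2 called 1 gene, the pseudogene Gm11478, named after its values were seen, and limma-voom 0 (1747 and 1849 at an unadjusted p below 0.05). DESeq2 had 329 genes at an adjusted p below 0.05, and edgeR with no filter beyond 1 count called 10. The tests thus differ in what they call, and no change given here is described as particular to METTL7A1 cells. GC content of the transcript moved with the change in METTL7A1 cells (Spearman -0.33, median 0.42 from 40 to below 45% GC and -0.81 at 60% or more) and less so in mock cells (-0.10, medians 0.18 and -0.29). Medians of single replicates, again from libraries of the same letter, varied within both cells. At 60% or more they were -1.06, -0.73 and -0.54 in METTL7A1 and -0.23, -0.50 and -0.057 in mock cells. From 40 to below 45% they were 0.57, 0.35 and 0.30 in METTL7A1 and 0.11, 0.41 and -0.027 in mock cells. Whether this trend differs between the cells was not tested. Coding length and GC content were nearly unrelated over these genes (Spearman 0.012), and within genes of 50 to below 60% GC the median rose from -1.38 below 600 coding nucleotides to 0.54 at 2400 or more. The part of GC content in the results was not tested.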

How the data were processed

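RNA of pooled gradient fractions was made into stranded Illumina libraries after removal of rRNA (Ribo-Zero Plus). The counts are those the authors deposited, raw whole-number reads per gene and library, and per the submitters' processing notes they used bcl2fastq 2.20.0.422, STAR 2.5.3a, featureCounts and R 3.5.1 on mm10 (GRCm38). The strand setting of the counting is not given in the sources used here, so reads of overlapping and antisense genes may not be told apart. Genes that reached 1 CPM in 3 or more of the 12 libraries were kept (12224 of 55376). Polysomal and sub-polysomal libraries were compared in R 4.3.3 with edgeR 4.0.16 (TMM factors, quasi-likelihood test, 1 mean per group, all 12 libraries sharing 1 estimate of the spread). The scripts were tested on simulated data. Gene types, coding lengths and 5′ UTRs came from GENCODE vM21, which matched 12157 of the tested genes.

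The members and lists were chosen with earlier results of these data known. Named genes were Mettl7a1, 9 mRNAs and 2 controls of the study's qRT-PCR primer list, Gm42418, the 10 largest rises and falls among called protein-coding genes and the 10 largest falls of other gene types (mean of at least 5 CPM, no overlap of the pools), and list members, those with the largest changes first. Genes outside this rule are named as such. Some genes that the rule names are not reported here. The 15 alternatives covered DESeq2 1.42.0, limma-voom (limma 3.58.1), other scalings and filters, fewer libraries, each replicate left out and a replicate block. Precision is limited by 3 replicates and by depth, and floors of 3 counts cover counting error only.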

Additional observations from a re-analysis of the deposited data

How the results depend on the processing

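Depth limits genes of few counts, and the polysomal and sub-polysomal libraries differ in total, so counts of calls rest on the scaling. Genes called stayed within 1.5 times of 215 higher and 1265 lower under DESeq2 (167 and 1309), limma-voom (209 and 1273), RLE and upper-quartile factors, and the other alternatives not named next. Library totals only gave 1130 higher and 738 lower (60.5% of called genes higher against 14.5%; 5222 and 1776 passed), scaling to Actb 81 higher (4.66%; 1335 passed), at least 10 counts in each METTL7A1 library 100 and 832, and an adjusted p below 0.05 with no limit on the change 3670 and 3578. Leaving out replicates D, E or F in turn gave 166 to 272 called higher and 1055 to 1174 lower, with 1533 to 2046 passed higher and 2077 to 2419 lower. In the difference from mock cells DESeq2 called 1 gene and the looser filter of 1 count 10. Medians that changed sign were those of the numbered zinc finger genes (0.0087 with upper-quartile factors, 0.41 under library totals), immediate early genes (0.071 under library totals), initiation factors and the qRT-PCR mRNAs (-0.034 and -0.041 scaled to Actb) and IRE mRNAs (0.022 at 10 counts). Single genes that changed sign had not passed: under library totals Cldn3 (0.055), Mettl7a1 (0.44), Odc1 (0.23) and Rack1 (0.39), scaled to Actb Khsrp (-0.19) and Pawr (-0.041), and for Mettl7a1 also upper-quartile factors (0.036) and the polysomal library of F left out (0.027). Under library totals Actb (0.71), Khsrp (0.53), Pawr (0.67) and Tfrc (0.89) passed as higher, which they had not. Over the fits that leave out 1 replicate, Khsrp ran from -0.15 to 0.18, Mettl7a1 from -0.13 to 0.17 and Gm42418 from -1.09 to 2.16 (-0.89 without the polysomal library of F). Same-lettered libraries did not deviate together (r = 0.038 for D, 0.019 for E and 0.045 for F), so the letters were not taken as pairs. The replicate block gave 217 higher and 1310 lower, 0.00074 for Mettl7a1 and 0.45 for Tfrc, which then passed (adjusted p = 0.00368, edgeR). The cause of these changes was not tested.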
